A study of Mus musculus with 8 samples.

Results

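Zfp366 encodes the zinc finger protein DC-SCRIPT, whose binding was mapped by CUT&Tag in conventional dendritic cells sorted from mouse spleen, and the regions described here are the cDC2 peaks that had no counterpart in cDC1. In CUT&Tag an antibody guides a transposase to the protein, and the DNA nearby is cut, tagged and sequenced. The regions were chosen by their place in the deposited peak lists: a cDC2 peak was taken when no cDC1 peak was centred within 1 kb of its own centre on the same chromosome. This held for 604 of the 2776 cDC2 peaks, or 21.8%, and they are called cDC2-only peaks below. The name says that no nearby cDC1 peak was listed, not that the protein was absent there in cDC1. The cDC2 groups were 1 library of cDC2 carrying zfp366+/+ and 2 libraries of cDC2 carrying zfp366-/-. The cDC1 groups, which supplied the list for the comparison, were 3 libraries of cDC1 carrying zfp366+/+ and 2 libraries of cDC1 carrying zfp366-/-. All 8 libraries came from pools of female C57BL/6 mice, of unstated age. The sources used here do not say which exons the knockout lacks.

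Conventional dendritic cells capture antigen and present it to T cells. cDC1 depend on IRF8 and BATF3 and excel at showing captured antigen to CD8 T cells, while cDC2 depend on factors such as IRF4 and Notch2 signalling, carry CD11b, and prime mainly CD4 T cells. DC-SCRIPT is a nuclear protein of the dendritic cell lineage that binds DNA through its zinc fingers and recruits the corepressor CtBP.

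For each subset, tags were deposited as 1 wild-type and 1 knockout set, and the sources used here do not say that all libraries of a group went into it. No value per library was used, and no spread between mouse pools can be given. In wild type the set had 4.77 M tags for cDC2 and 35.5 M for cDC1. In knockout it had 6.83 M for cDC2 and 12.1 M for cDC1, as worked out from the authors' scaling. Normalised tags express the signal of a peak per 10000000 tags of the set, so that 1 tag is worth 2.09 of them in wild-type cDC2 and 1.47 in knockout cDC2. Reads made by PCR are not independent molecules, and the intervals below cover counting error alone. Every listed peak had a wild-type signal at least 4 times the knockout signal, because the peak caller required it. Coordinates of peaks are in build GRCm38, as named in the submitters' processing notes. The peak lists hold no expression data, so the identity of the sorted cells was not checked here.

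Promoters of protein-coding genes were taken as 250 bases before to 50 after a listed start. Of 21238 such promoters, 23 held the centre of a cDC2-only peak. In peaks, 23 of the 604 cDC2-only peaks were centred in a promoter, beside 129 of the 2172 other cDC2 peaks. The promoters below are shown because they belong to the highest-scoring of these regions, Hexdc, to the chemokine gene Ccl3, to Itgam, which encodes the CD11b that marks cDC2, and to Oas3, an interferon-induced antiviral enzyme that was picked after its motifs had been seen. They were picked by hand and do not stand for the other promoters, which include those of Samm50, Dnajb2, Cdk7 and Wdr70. All are RefSeq sequence of build GRCm38.p6, written from 5′ to 3′ along the gene. Capitals mark matches to the motifs searched, on either strand and over the whole window of 300 bases, also outside the peak. Of these, GGGCGG stands for SP and KLF factors, GGGNNNNCC for NF-kB-like sites and GAAANNGAA for interferon regulatory factors. TGTGGT stands for RUNX, TGANTCA for AP-1 and CCAAT for NFY. The peaks did not cover the GGGCGG matches of Hexdc or any match of Ccl3. Positions lie at chr11:121204183-121204482 on the plus strand for Hexdc, at chr11:83649329-83649628 on the minus strand for Ccl3, at chr7:128062390-128062689 on the plus strand for Itgam, and at chr5:120777610-120777909 on the minus strand for Oas3.
Hexdc: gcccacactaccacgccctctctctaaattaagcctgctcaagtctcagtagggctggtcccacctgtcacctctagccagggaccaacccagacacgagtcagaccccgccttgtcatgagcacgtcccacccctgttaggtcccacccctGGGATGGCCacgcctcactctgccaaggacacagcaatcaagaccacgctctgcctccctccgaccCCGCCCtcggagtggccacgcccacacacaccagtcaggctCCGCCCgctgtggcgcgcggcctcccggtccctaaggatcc
Ccl3: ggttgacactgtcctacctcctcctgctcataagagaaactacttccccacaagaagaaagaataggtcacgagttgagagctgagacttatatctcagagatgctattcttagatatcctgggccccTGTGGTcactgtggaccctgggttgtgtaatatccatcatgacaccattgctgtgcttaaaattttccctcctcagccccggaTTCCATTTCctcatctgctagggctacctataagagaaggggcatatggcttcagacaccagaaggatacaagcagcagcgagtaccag
Itgam: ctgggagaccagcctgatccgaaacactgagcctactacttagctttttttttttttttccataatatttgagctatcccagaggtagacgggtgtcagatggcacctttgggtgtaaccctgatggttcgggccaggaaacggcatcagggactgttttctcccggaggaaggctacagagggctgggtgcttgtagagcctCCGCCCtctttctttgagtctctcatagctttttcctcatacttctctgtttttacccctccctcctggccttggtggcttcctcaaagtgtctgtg
Oas3: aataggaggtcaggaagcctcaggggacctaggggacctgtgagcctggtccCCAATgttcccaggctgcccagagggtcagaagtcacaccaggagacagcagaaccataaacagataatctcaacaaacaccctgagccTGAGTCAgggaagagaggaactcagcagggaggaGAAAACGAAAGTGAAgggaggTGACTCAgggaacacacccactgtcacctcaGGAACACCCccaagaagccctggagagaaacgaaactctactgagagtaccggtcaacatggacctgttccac

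In the Hexdc promoter the peak centre stood at base 77, and the region held 44.0 normalised wild-type tags against 9.52 normalised knockout tags. The centre also lay inside the RefSeq span of Ogfod3, to which the region was assigned, and 94 bp from the nearest gene end. The peak before Ccl3 was centred at base 2 of the window, 249 bp ahead of the start, with 50.3 wild-type and 10.3 knockout normalised tags. At Itgam the centre lay 34 bp ahead of the start, at base 217, close to the single GGGCGG match, which begins at base 204 on the opposite strand. That region held 30.4 normalised wild-type tags, from 14.5 tags as sequenced, against 3 knockout tags as sequenced. The Oas3 promoter held overlapping GAAANNGAA matches that begin at bases 176 and 182, between TGANTCA matches at bases 142 and 197. Its peak was centred at base 119 and held 22.0 normalised wild-type tags, from 10.5 tags as sequenced, against 3 knockout tags as sequenced.

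Over all 23 promoters, 14 held GGGCGG, or 60.9%, against 94 of 146 or 64.4% of promoters at the other cDC2 peaks and 46.2% of the 21238 promoters of protein-coding genes. GGGNNNNCC was found in 15 of them, or 65.2%, against 60.3% at the other cDC2 peaks and 48.6% of all promoters, and its letters can overlap those of GGGCGG. The median GC content was 60.0% in these promoters and 56.3% in all. GAAANNGAA occurred in 4 of the 23, or 17.4%, in Ccl3, Oas3, Tmem69 and Traf4, against 13.7% at the other cDC2 peaks and 8.13% of all. These counts are of whole promoter windows, and at Ccl3 and Tmem69 the GAAANNGAA match lay outside the peak. The E-box CACGTG was also in 4, against 8.22% at the other cDC2 peaks and 7.84% of all promoters. The ETS motif GAGGAAGT, the combined ETS and IRF motif GGAANNGAA, the CRE motif TGACGTCA and the GFY motif CTACAATTC were in none of the 23. Their shares were 7.53%, 7.53%, 3.42% and 1.37% at the other cDC2 peaks, and 3.13%, 7.76%, 2.24% and 0.490% of all promoters. With 23 promoters a count of 0 has an exact 95% interval that reaches up to 14.8%, above all of these shares. A lower share of these letters could therefore not have been seen with so few promoters. TGTGGT was in 3 or 13.0%, against 13.7% at the other cDC2 peaks and 15.0% of all, and CCAAT in 8 or 34.8%, against 43.8% and 38.2%. TGANTCA was in 2 or 8.70%, against 10.3% at the other cDC2 peaks and 6.99% of all. The NRF1 motif GCATGCGC was in 1 or 4.35%, against 8.90% at the other cDC2 peaks and 3.52% of all, and the YY1 motif GATGGCGGC in 2 or 8.70%, against 2.05% and 1.41%. The exact 95% intervals of the 23 promoters were wide, for GGGCGG 38.5% to 80.3% and for GAAANNGAA 4.95% to 38.8%, and contained the share of all promoters for each motif searched. Mr1 and Tnfrsf1a, whose promoters also held a peak centre, held no match to any of the motifs.

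The cDC2-only peaks were weak on the whole. Their median was 19.9 normalised wild-type tags, with quartiles of 16.8 and 25.1 and a range of 12.6 to 72.3, and the other 2172 cDC2 peaks had a median of 25.1. In tags as sequenced, the median was 9.5 in cDC2-only peaks and 12 in the others. Knockout tags had a median of 1.5 in cDC2-only peaks and 2.5 in the others, and the median deposited fold was 8.99 against 6.91. These values come from the same contrast as the choice of regions and are descriptions only. Among cDC2 peaks with under 10 wild-type tags, 33.6% were cDC2-only, against 1.96% of those with 30 tags or more. Peaks of like signal were then set side by side, and below 20 wild-type tags the genotype contrast was close in both sets. The peak caller's limits on fold and p-value allow few knockout tags there, so this likeness was largely built in. Under 10 wild-type tags, the median knockout count was 1 tag in both sets. The median fold was 10.72 in cDC2-only peaks and 11.44 in the others. Knockout tags stood at their lowest value of 0.5 in 34.2% of the cDC2-only peaks and 33.2% of the others. From 10 to under 20 tags, the median fold was 6.24 in cDC2-only peaks and 6.16 in the others. From 20 to under 30 tags it was 4.605 in the 18 cDC2-only peaks and 5.6 in the 258 others.

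**Figure D1:**
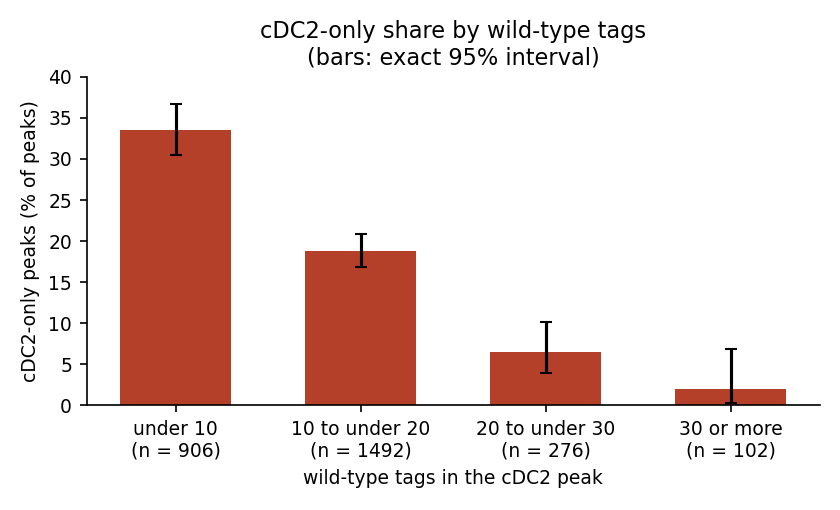
Share of cDC2 peaks without a cDC1 peak centred within 1 kb (vertical axis, % of peaks) by the number of wild-type tags in the cDC2 peak (horizontal axis), with exact 95% intervals as lines. The share was 33.6%, 18.8%, 6.52% and 1.96% from the weakest to the strongest group.

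Depth differed between the subsets. A signal as strong as the weakest cDC2-only peak equals 44.7 tags in the cDC1 wild-type set. The cDC1 list was made with a threshold of 14 tags and the cDC2 list with a threshold of 7. In the cDC1 list, 38.6% of peaks had fewer normalised tags than the weakest cDC2-only peak and 63.0% fewer than the median one. The weakest of the other cDC2 peaks also held 12.6 normalised tags, so these shares depend on the depth and threshold of each list. A place can be missing from the cDC1 list because the wild-type signal was low, because the knockout signal was too high beside it or because the surroundings were high, and which of these held at each region was not tested.

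The nearest cDC1 peak was usually not far. Its centre lay at a median distance of 7.36 kb, with quartiles of 3.10 kb and 18.2 kb. It was within 2 kb for 87 cDC2-only peaks, over 2 kb and up to 5 kb away for 139, over 5 kb and up to 10 kb away for 135, and over 10 kb and up to 50 kb away for 195. For 48 regions, or 7.95%, no cDC1 peak was centred within 50 kb, and for 23 none within 100 kb. In 447 cases, 74.0%, the nearest cDC1 peak was assigned to the same gene. Just inside the limit of 1 kb stood regions in Cmtm3, Cdc14a and Lcp1, at 1.01 kb, 1.012 kb and 1.015 kb, with 20.9, 20.9 and 39.8 normalised wild-type tags. Just outside it stood regions in Reep3, in Myadm and next to Sowahc, at 0.971 kb, 0.988 kb and 0.996 kb, with 47.1, 37.7 and 20.9 tags.

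**Figure D2:**
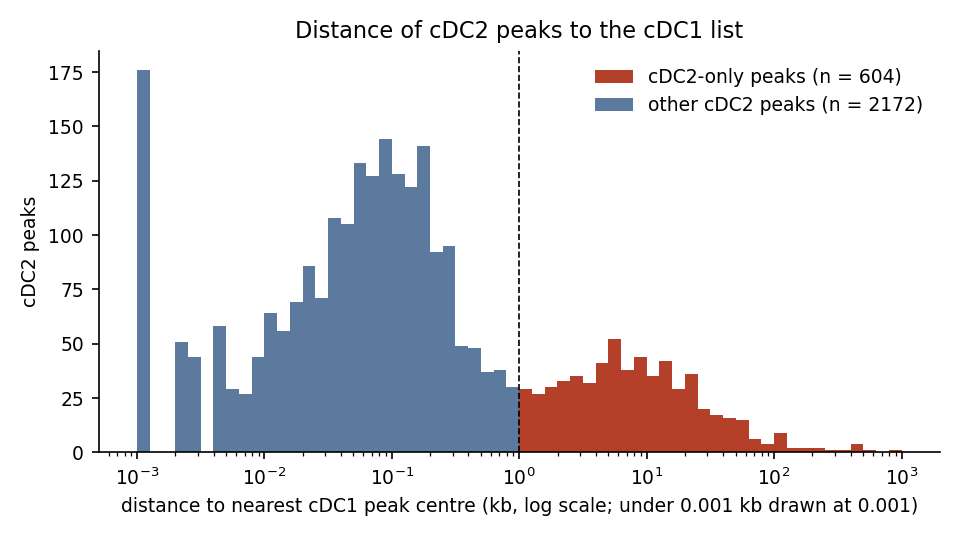
Number of cDC2 peaks (vertical axis) by distance to the nearest cDC1 peak centre (horizontal axis, kb, log scale), with cDC2-only peaks in red, the other cDC2 peaks in blue and the 1 kb limit as a dashed line. The 604 cDC2-only peaks had a median distance of 7.36 kb.

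The remotest regions were the one 491.2 kb from Trhde on chromosome 10, which lay 973.0 kb from any cDC1 peak, the one 1.07 kb from 4930467E23Rik on chromosome 8 at 595.8 kb, and the one 97.9 kb from Nbea on chromosome 3 at 464.5 kb. They held 13.6, 15.7 and 15.7 normalised wild-type tags, below the lower quartile of 16.8, and at most 1 knockout tag. A stronger remote region lay inside Rora. In this nuclear receptor gene the peak on chromosome 9 at 69349645 to 69349835 held 40.8 normalised tags and lay 104.5 kb from the nearest cDC1 peak, with a deposited fold of 6.97 (95% interval 2.39 to 28.8).

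By score, the leading cDC2-only peaks were assigned to Ptpn3, Grb2, Tomm20, Ccr1, C3ar1, Pde4b, Stim1, Eno3, Ogfod3, Ccl4, Gmfg and Ddx6. Ifitm3 and Klf14 tied with Ddx6 at a score of 19.5 and came after it only by normalised tags, with 42.9 and 41.9 against 44.0. Scores and folds are those of the authors' deposited table, and intervals were computed from the tags. The highest stood inside Ptpn3, a tyrosine phosphatase gene, on chromosome 4 at 57306259 to 57306449. It held 72.3 normalised wild-type tags against 15.4 normalised knockout tags, with a fold of 4.83 (95% interval 2.50 to 11.6). Next came a region 2.52 kb from Grb2, the adaptor that links receptors to Ras, with 66.0 wild-type and 16.1 knockout normalised tags, a fold of 4.09 (95% interval 2.04 to 9.14). Of all 2776 cDC2 peaks, 102 had 30 wild-type tags or more, and these were the 2 of them that were cDC2-only. The 12 leading regions had folds of 4.09 to 8.26, and Ifitm3 and Klf14 had 5.86 and 4, where the peak caller required 4.

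Among the leading regions were a chemokine receptor gene and the genes of chemokines. Ccr1 encodes a receptor for inflammatory chemokines that include CCL3. Its stronger cDC2-only peak lay 37.7 kb beyond the gene on chromosome 9, at 123924360 to 123924550, with 48.2 normalised wild-type tags, 11.0 knockout tags on the same scale and a fold of 4.38 (95% interval 1.77 to 10.6). A second one, 10.8 kb from the gene, held 18.8 normalised tags and 0.5 knockout tag, the lowest value listed, for a fold of at the least 2.82 by the lower end of its exact 95% interval. Around Ccl3 and Ccl4, which encode macrophage inflammatory proteins, 3 cDC2-only peaks lay close together. The pair at the Ccl3 start was 571 bp apart, with 50.3 and 29.3 normalised tags, closer than any other cDC2-only pair. The stronger one is assigned to Ccl4, whose RefSeq span covers it, although it lies at the start of Ccl3. The third peak, on chromosome 11 at 83662426 to 83662616, held 23.0 tags, 12.9 kb from the strongest. One cDC1 peak of 16.5 normalised tags was the nearest to the first and to the third, at 9.43 kb and 3.46 kb.

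The peak 6.86 kb ahead of C3ar1, the receptor of complement fragment C3a, held 54.5 normalised tags in wild type against 6.59 in knockout, with a fold of 8.26 (95% interval 3.22 to 36.6) and 31.4 times the density of its surroundings. Pde4b, a phosphodiesterase that degrades cyclic AMP, carried a pair 16.0 kb apart with 48.2 and 34.6 normalised tags. Inside Syk, the kinase downstream of many lectin and Fc receptors, a pair 717 bp apart held 28.3 and 20.9 normalised tags, and no cDC1 peak was centred within 17.6 kb of either. Stim1, the calcium sensor of the endoplasmic reticulum, had a peak of 48.2 tags 753 bp ahead of a listed start and 18.4 kb from the nearest cDC1 peak. Gmfg, a regulator of actin branching in blood cells, had 45.0 tags 63 bp past its start.

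**Figure D3:**
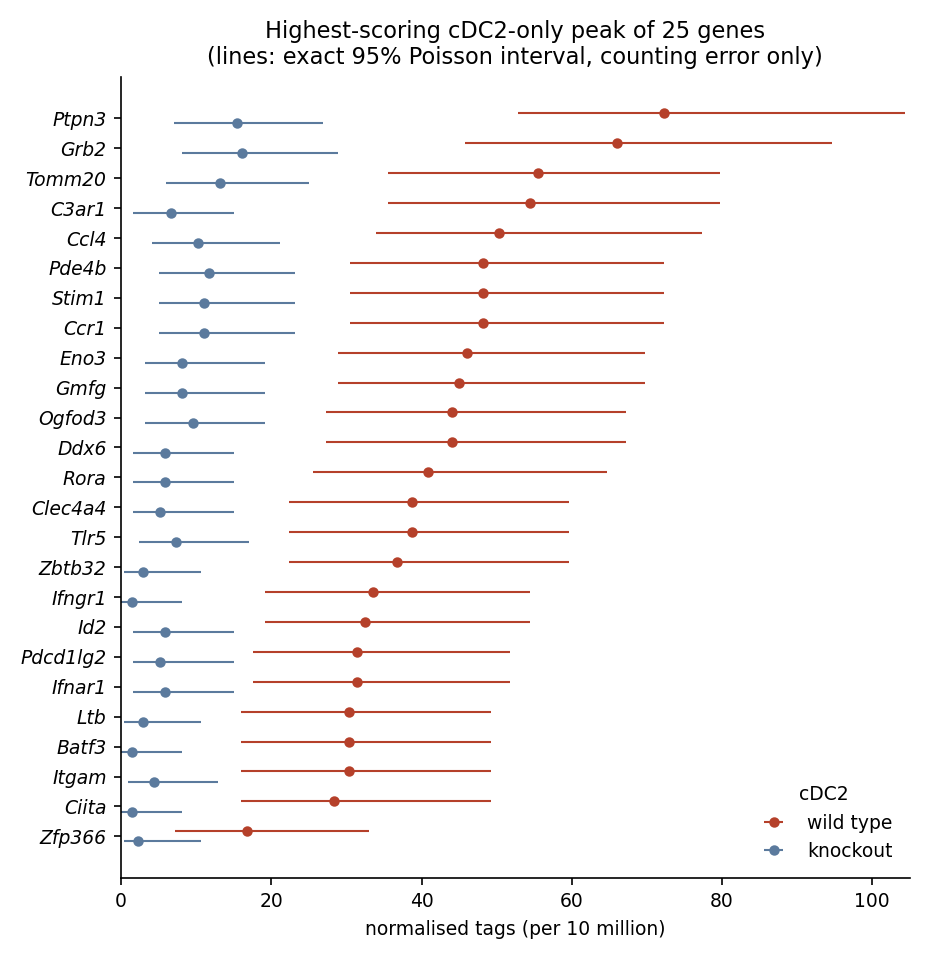
Normalised tags (horizontal axis, tags per 10000000) in wild-type (red) and knockout (blue) cDC2 for the highest-scoring cDC2-only peak of 25 genes, with exact 95% Poisson intervals that cover counting error only. Wild-type values run from 72.3 at Ptpn3 down to 16.8 at Zfp366, and the intervals of both genotypes overlap at Zfp366.

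The 604 regions were assigned to 558 protein-coding genes, which is 2.55% of all 21887. Most of these genes carried cDC1 peaks elsewhere, 454 of 558 or 81.4% (exact 95% interval 77.9% to 84.5%), against 50.7% of all protein-coding genes. Assignment of a peak depends on gene length and spacing, and these were not matched between the 558 genes and all genes. Another cDC2 peak near a cDC1 peak was found at 164 of the 558 genes, or 29.4%. A single cDC2-only peak was assigned to 517 genes, 2 to 37 genes, 3 to Grk3, Ptger4 and Tomm20, and 4 to Mid1. Ptger4 encodes a receptor for prostaglandin E2. Of its 3 regions, 1 lay inside the gene with 16.8 normalised tags and 2 lay 273.1 kb and 295.4 kb away from it with 15.7 and 23.0. The 3 regions of Tomm20, a mitochondrial import receptor gene, lay 84.8 kb to 127.8 kb away with 55.5, 32.5 and 26.2 tags, and Tomm20 also had 17 cDC1 peaks. At Grk3, a kinase of G protein-coupled receptors, the 3 held 18.8, 18.8 and 23.0 tags.

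At 104 genes a cDC2-only peak stood with no cDC1 peak assigned to the gene. The 8 highest-scoring were Eno3, Ogfod3, Kif20a, Gm52799, Prss40, Emp3, Zbtb32 and Clic1. Zbtb32 encodes a transcriptional repressor of lymphocytes, and its peak, 158 bp past a start, held 36.7 normalised wild-type tags against 2.93 normalised knockout tags, with a fold of 12.5 (95% interval 3.08 to 114.3). The peak inside Eno3 lay 307 bp ahead of the start of Pfn1, which encodes the actin-binding protein profilin, with 46.1 wild-type and 8.06 knockout normalised tags. Kif20a, a motor protein of cell division, held 48.2 normalised wild-type tags 69 bp from an outer end of its RefSeq span. Whether that end was the start is not given here, as starts on chromosome 18 were not used. The cDC1 peak nearest to the Kif20a region was 27.2 kb away. Clic1, Emp3, Prss40 and Gm52799 held 37.7, 40.8, 40.8 and 41.9 normalised tags. Even so, cDC1 peaks assigned to neighbouring genes lay as near as 1.89 kb at Emp3 and 2.23 kb at Gm52799.

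Gene ends are here the outer ends of RefSeq gene spans, so that starts inside a span, such as those near the Eno3, Gmfg and Stim1 regions, do not count as ends. Within 1 kb of such an end, the highest scores were those of Ogfod3, Ccl4, Kif20a, Gm52799 and Antxr2. Antxr2, a receptor of anthrax toxin that also binds matrix collagen, held 47.1 normalised tags 346 bp ahead of its start. Of the 94 regions within 1 kb of a gene end, 61 lay within 1 kb of a listed start. Further promoter regions by score were Tnfrsf1a, a receptor of tumour necrosis factor, with 32.5 normalised tags, Samm50 with 31.4, Rnf114 with 30.4, and Dnajb2, Lrrc59 and Nagpa with 29.3 each.

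Positions relative to genes were close to those of the other cDC2 peaks. Of the cDC2-only peaks, 53.1% were centred inside a protein-coding gene (exact 95% interval 49.1% to 57.2%), against 49.3% of the other cDC2 peaks (47.2% to 51.4%). Within 1 kb of a gene end lay 15.6% of the cDC2-only peaks (12.8% to 18.7%) and 17.2% of the others (15.6% to 18.8%). Over 10 kb from any gene lay 26.5% of the cDC2-only peaks (23.0% to 30.2%) and 29.0% of the others (27.1% to 30.9%). The intervals overlapped for all 3 positions. No test was made, since all cDC2 peaks come from the same wild-type pool.

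**Figure D4:**
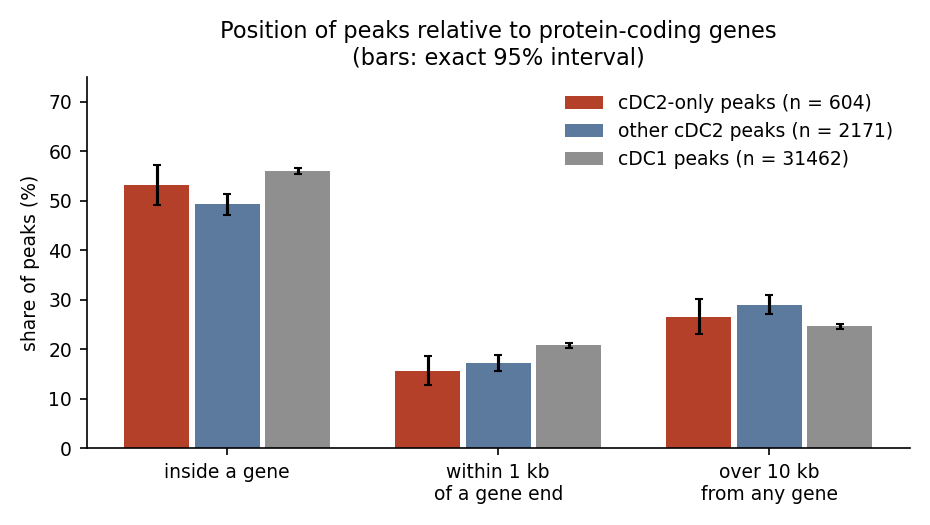
Share of peaks (vertical axis, %) by position (inside a protein-coding gene, near a gene end at up to 1 kb, or farther than 10 kb from genes) for cDC2-only peaks, the other cDC2 peaks and all cDC1 peaks, with exact 95% intervals as lines. The shares inside a gene were 53.1%, 49.3% and 56.0%.

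Genes that mark cDC2 were among those with a cDC2-only peak. Of 25 such genes, 5 had one, Itgam, Clec4a4, Clec12a, Ltb and Dtx1, which is 20% beside 2.55% of all protein-coding genes. Any cDC2 peak was found at 13 of the 25, beside 9.44% of all genes, and a cDC1 peak at 19. The lists were chosen with earlier results of these data known, so their counts are descriptions. Clec4a4 encodes DCIR2, a lectin of splenic cDC2 recognised by the antibody 33D1. Its peak, 234 bp from the gene on chromosome 6 at 122990038 to 122990228, held 38.7 normalised wild-type tags against 5.13 normalised knockout tags, with a fold of 7.56 (95% interval 2.12 to 26.1). No cDC1 peak was assigned to Clec4a4, and the nearest lay 37.5 kb away. Itgam had its promoter peak and a second one of 16.8 tags inside the gene, 54.0 kb further on, with 0.5 knockout tag and an exact 95% interval of the fold that began at 2.44. It also carried 7 cDC1 peaks.

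Ltb encodes lymphotoxin beta, a cytokine of lymphoid tissue organisation. Its cDC2-only peak lay 1.48 kb from the gene with 30.4 wild-type and 2.93 knockout normalised tags, a fold of 10.4 (95% interval 2.30 to 90.7). Dtx1, which encodes the Notch regulator Deltex, had no cDC1 peak, and its cDC2-only peak of 14.7 tags lay 59.8 kb from the nearest one. Clec12a, an inhibitory lectin gene, held 18.8 tags. The nearest cDC1 peaks were closer at the other 3 markers, 1.40 kb away at Clec12a, 2.63 kb at Ltb and 3.25 kb at the Itgam promoter, and Clec12a and Ltb had 1 cDC1 peak each. None of the cDC2-only peaks was assigned to Irf4 or Klf4, the transcription factors of cDC2, whose 2 cDC2 peaks each stood near a cDC1 peak. Irf8 and Il12b had no cDC2 peak at all, and 6 and 14 cDC1 peaks.

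**Figure D5:**
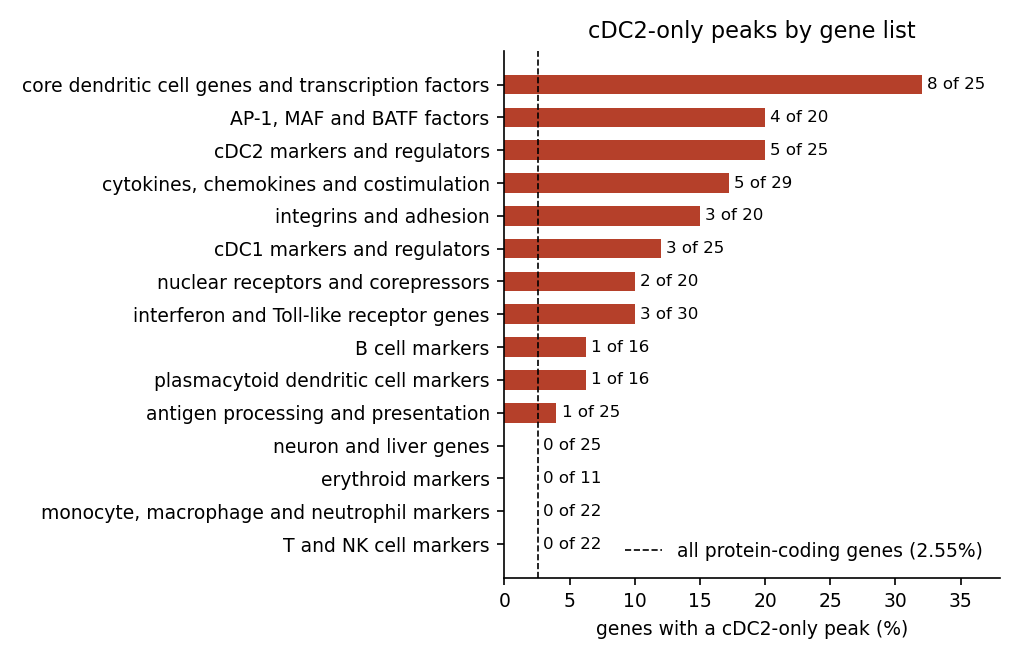
Share of genes with a cDC2-only peak (horizontal axis, %) for 15 gene lists, with the count beside each bar and the share over all protein-coding genes, 2.55%, as a dashed line. The highest share was 8 of 25 for core dendritic cell genes and the lowest was 0 for 4 lists of other cells or tissues.

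Core genes of dendritic cells had the highest count, 8 of 25 or 32.0%, with any cDC2 peak at 13 of the 25 and a cDC1 peak at 24. The 8 were Zfp366, Zbtb46, Kit, Etv6, Bcl11a, Runx3, Hlx and Ciita. Zfp366 had 1 cDC2 peak and it was cDC2-only, with 16.8 normalised wild-type tags from 8 tags, 1.5 knockout tags and a 95% interval of the fold of 1.14 to 55.3. It lay inside the gene, 3.61 kb from the nearest of the 10 cDC1 peaks of Zfp366. This is the gene altered in the knockout, and whether the knockout lacks sequence under the peak was not tested. Ciita encodes the transactivator of class II genes. Both of its cDC2 peaks were cDC2-only and lay inside the gene 8.37 kb apart, the stronger with 28.3 normalised wild-type tags, 1 knockout tag and a fold of 19.3 (95% interval 3.04 to 846.1). Hlx, a homeobox gene, held 33.5 tags 248.9 kb away, Zbtb46, a factor of the conventional lineage, 24.1 inside the gene, and Runx3 23.0 inside the gene. Etv6, Bcl11a and Kit held 16.8, 17.8 and 17.8 tags at distances of 21.7 kb to 82.0 kb.

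Markers of cDC1 were not free of cDC2-only peaks. Of 25 such genes, 3 had one, namely Batf3, Id2 and Bcl6, or 12% beside 2.55% of all protein-coding genes. Any cDC2 peak was found at 9 of the 25, beside 9.44% of all genes, while all 25 had a cDC1 peak. Batf3, the transcription factor required for cDC1, held 30.4 normalised wild-type tags against 1 knockout tag, 2.45 kb from the gene, with a fold of 20.7 (95% interval 3.04 to 846.1). The region of Id2, an inhibitor of helix-loop-helix factors, lay 143.9 kb away with 32.5 tags. That of Bcl6, a repressor, lay inside the gene with 15.7 normalised wild-type tags against 0.5 knockout tag.

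Among genes of cytokines, chemokines and costimulation the count was 5 of 29, or 17.2%, with Ccl3, Ccl4, Cd83, Pdcd1lg2 and Tnfsf9. Of these 29 genes, 10 had any cDC2 peak. Over all protein-coding genes, 2.55% had a cDC2-only peak and 9.44% had any cDC2 peak. Pdcd1lg2, which encodes the inhibitory ligand PD-L2, held 31.4 normalised wild-type tags 13.8 kb from the gene. Tnfsf9, the ligand of 4-1BB, held 25.1 tags 0.718 kb from the gene, and Cd83, a maturation marker, 25.1 tags 95.5 kb away. Interferon and Toll-like receptor genes had 3 of 30, or 10%, with any cDC2 peak at 9 of the 30. Tlr5, the receptor of bacterial flagellin, carried 2 cDC2-only peaks with 38.7 and 18.8 normalised tags, 26.2 kb and 16.9 kb from the gene. Ifngr1 held 33.5 normalised tags against 1 knockout tag inside the gene, with a fold of 22.9 (95% interval 3.55 to 959.1), and Ifnar1 held 31.4 tags 28.5 kb away.

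The AP-1, MAF and BATF factors had 4 of 20, or 20%, with any cDC2 peak at 10 of the 20. The 4 were Fos, Fosl2, Batf3 and Bach2, at 24.1, 18.8, 30.4 and 16.8 normalised wild-type tags. Integrin and adhesion genes had 3 of 20, or 15.0%, with any cDC2 peak at 6. The 3 were Itgam, and Itgb3 and Cd44 at 26.2 each. Nuclear receptors and corepressors had 2 of 20, with Rora among them, and any cDC2 peak at 3. Ciita alone stood for antigen processing and presentation, 1 of 25, with any cDC2 peak at 3. Lists of other cells held few: Runx2 among 16 plasmacytoid markers, Bach2 among 16 B cell markers, and none among 22 T and NK cell markers, 22 monocyte, macrophage and neutrophil markers, 11 erythroid markers and 25 neuron and liver genes. Any cDC2 peak was found at few genes of these lists too, at 3, 3, 2, 1, 0 and 1 in the same order. Lists this short cannot show a share below 2.55%. Over all lists, 32 of 318 genes, or 10.1%, had a cDC2-only peak, and 80 had any cDC2 peak.

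At the low end, 7 cDC2-only peaks tied at 12.6 normalised wild-type tags from 6 tags, those assigned to Cd300e, Susd6, Ubxn7, Pou1f1, Ms4a4d, Kmt2c and Npvf. The first 5 had 1 knockout tag, and the 95% interval of their fold began at 1.04. Kmt2c and Npvf had 0.5 knockout tag, and theirs began at 1.68. Under 10 wild-type tags stood behind 304 of the 604 regions, which leaves the fold of a single such region imprecise.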

How the data were processed

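DC-SCRIPT CUT&Tag libraries took their group from the sample titles. Peaks were called by the authors with HOMER findPeaks on 1 wild-type tag set with 1 knockout tag set as control, per the file headers, with peaks 191 bp wide, an FDR of 0.001, and a fold of at least 4 with a Poisson p-value of at most 0.0001 over knockout and over the surrounding 10 kb. The submitters' processing notes name HOMER, GRCm38 and mm10, with no aligner stated in what was used here. The deposited signal is wild-type tags scaled to 10000000. The deposited score, fold ratio and p-value are the authors' and rest on tags, not replicates, and the focus ratio, a deposited fraction, is not reported.

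Knockout tags were scaled back to tags as sequenced, where 0.5 tag is the lowest value listed. Exact 95% intervals (Clopper-Pearson or Poisson, tags rounded to whole numbers) cover counting error only. Each centre was assigned to the RefSeq (GRCm38.p6) protein-coding gene that holds it, or else the gene with the nearest end, and 17469 of 21887 genes had a promoter sequence. Starts on chromosome 18 were not used. Of 333 list entries, some stood in several lists, and Iglc2 and Ahsp were not matched. No test between groups was made. Named regions were the 12 highest scores (ties by tags), genes with 3 or more regions, up to 4 genes per list by score, the highest scores at gene ends (5), in promoters (8, with ties) and at genes without a cDC1 peak (8), the 3 closest pairs and the extremes of distance and signal. The further genes of a list, Oas3, Mr1, Tmem69, Traf4, Ifitm3, Klf14, the further promoters and weakest regions, and the genes near miRNAs were picked with their values in view. One gene of a list is not reported here by name. The regions and lists were chosen with earlier results of these data known. Distances, gene assignment and intervals were tested on simulated data. Python 3.11.15, pandas 2.3.3 and scipy 1.17.1 were used. Alternatives changed the distance limit, score, fold, gene distance and chromosomes.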

Additional observations from a re-analysis of the deposited data

How the results depend on the processing

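With no overlap of 1 bp as the rule in place of 1 kb between centres, 1009 regions of 903 genes were cDC2-only, 19.4% near a gene end, 2.13 kb at the median from a cDC1 peak, and 88.3% of the genes had a cDC1 peak. With a limit of 5 kb there were 378 regions of 364 genes, with medians of 18.8 normalised tags, a fold of 10.01 and 13.8 kb; knockout tags were lowest in 23.3%, 73.9% of the genes had a cDC1 peak and 19 list genes were left. The higher 50% of scores left 177 regions of 172 genes, with 29.3 tags, a fold of 5.72, 4.78 kb, 19.2% near an end, knockout tags lowest in 4.52% and 19 list genes. A fold of at least 8 left 351 regions of 334 genes, with 16.8 tags, a fold of 12.15, 8.61 kb, knockout tags lowest in 33.6% and 14 list genes. With genes taken within 10 kb only, 75.2% had a cDC1 peak and 20 list genes were left, and within 2 kb of a gene end lay 21.9%. Leaving out X and Y, an alternative chosen after seeing the data, kept 595 regions and a median of 19.9 tags. The shares inside a gene and over 10 kb from one stayed within their counting intervals under each alternative run on them. No paired analysis was possible because the tables hold 1 set of tags per genotype and no value per library, and for the same reason no replicate could be left out. The 4.77 M wild-type tags of a single cDC2 pool limit every value.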

Other observations

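Sex chromosomes supplied 9 cDC2-only peaks, 8 on X and 1 on Y, in pools labelled female. Of those on X, 4 were assigned to Mid1, a ubiquitin ligase gene that spans the border of the pseudoautosomal region in C57BL/6 mice, where X and Y share sequence. They held 18.8 to 24.1 normalised wild-type tags, and all 4 cDC2 peaks of Mid1 were cDC2-only, beside 14 cDC1 peaks. On Y the region spans 90790170 to 90790360, with 27.2 normalised tags in wild type against 0.5 tag in knockout and an exact 95% interval of the fold that began at 4.36. In the whole cDC2 list, 6 peaks lay on Y with folds of 10.01 to 111.5, and in the cDC1 list 10 with folds of 4.77 to 93.65. Whether the reads placed on Y, or those at Mid1, came from sequence shared by X and Y was not tested.

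Peaks with knockout tags at the lowest value of 0.5 made up a larger share on X than on autosomes in both lists. On X outside Mid1 it was 31.8% of 44 cDC2 peaks and 39.7% of 743 cDC1 peaks, and on autosomes it was 13.4% of 2721 cDC2 peaks and 19.6% of 30695 cDC1 peaks. Wild-type signal was lower there too, with medians of 18.8 normalised tags on X against 24.1 on autosomes in cDC2, and of 10.4 on X against 15.6 on autosomes in cDC1. The part of signal in the shares was not tested. Among chromosomes with over 50 cDC2 peaks, the share that was cDC2-only ran from 15.9% on chromosome 12 to 29.1% on chromosomes 5 and 8, with exact 95% intervals of 9.72% to 24.0% on chromosome 12 and 20.6% to 38.9% on chromosome 8.

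Of the miRNA hairpins in the RefSeq table, Mir695 lay 409 bp from a cDC2-only peak inside Pigu with 32.5 normalised tags, and Mir7050 and Mir6973a lay within 2 kb of the regions of Fxyd5 and Ltb.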
